A study of Homo sapiens with 6 samples.

Results

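The genes described here are the S phase and DNA replication genes of endothelial cells, a list of 36 symbols that covers the origin, helicase, polymerase, clamp, nucleotide supply and G1/S cyclin functions. They were selected by symbol, from a list drawn up with earlier results of these data known, and all 36 were found among the 45372 genes of the deposited tables. The cells were human umbilical vein endothelial cells (HUVECs), primary cells from the vein of the umbilical cord, passaged 3 times and labelled wild type. In the control group, 3 libraries came from cells transfected with a non-specific control RNA. In the mimic group, 3 libraries came from cells transfected with a miR-409-3p mimic, a synthetic form of that microRNA. Both groups received 50 nM RNA with a lipid reagent, and RNA was taken at 48 h. The labels call the 3 libraries of a group biological replicates and the design text says that 4 technical replicates were pooled for each, but whether the replicates came from separate donors is not given. The p-values therefore measure the spread between these libraries. The titles of both groups also carry the words "Non Treated", without naming a treatment.

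A cell copies its genome once per cycle by a fixed order of steps. In G1 the origin recognition complex, with CDC6 and CDT1, loads the MCM helicase onto DNA, and this loading is called licensing. At the start of S phase, cyclin-dependent kinases help to recruit CDC45 and GINS to MCM, which turns it into an active helicase, and polymerases with the PCNA clamp then copy the strands. Transcription of most of these genes is driven by E2F factors, which cyclin D and cyclin E kinases release from the RB protein, so their transcripts are widely read as a sign of proliferation. BTG2, the gene that the series title ties to miR-409-3p, encodes an antiproliferative protein that is known for slowing the passage from G1 to S. The comparison of mimic with control cells shows whether the replication transcripts differed when the microRNA was supplied.

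The sequences below are those through which the microRNA could pair with these transcripts. A microRNA commonly pairs through its seed, bases 2 to 8, with sites in the 3′ untranslated region (UTR) of a transcript. The mature miR-409-3p, which RefSeq places on the plus strand at chr14:101065346-101065367 (GRCh38.p14), is shown 5′ to 3′ with the seed in capitals.
hsa-miR-409-3p: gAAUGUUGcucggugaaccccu

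The longest annotated 3′ UTR of each member was searched for CAACATT, the complement of the seed, with a following A (the 8mer class) or without (7mer-m8), and for AACATTA (7mer-A1) and AACATT (6mer). Of 36 members, 6 (16.7%) held a 7mer or 8mer site, against 22.8% of the 11855 protein-coding genes searched. The median UTR was shorter in the members, 872 nt against 1383 nt. The match of MCM6 starts at base 1196 of a UTR of 1209 nt, so its window is cut short by the annotated end. Which UTRs these cells used was not tested. The sites lie on the plus strand except those of MCM6 and SLBP, which lie on the minus strand (GRCh38, GENCODE release 29), and capitals mark the match.
RRM2, 8mer, chr2:10131187-10131211: atatgtgtaCAACATTAaaatgaaa
GINS3, 8mer, chr16:58405665-58405689: taacttttgCAACATTAttgcatag
CDC6, 7mer-m8, chr17:40302799-40302822: cagatactaCAACATTgtggcatt
MCM5, 7mer-A1, chr22:35425322-35425345: aatctatggAACATTAgataaggt
MCM6, 7mer-A1, chr2:135839626-135839648: taaatggcaAACATTAaaaacaa
SLBP, 7mer-A1, chr4:1693428-1693451: ttcttaagaAACATTAattttatg
A further 5 members (CCND1, MCM10, POLA1, RFC4 and RRM1) held only the 6mer, and 25 held no match. The values of these genes are given below with their complexes.

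A second set of sequences shows what the members share at their promoters. In the RefSeq promoter table (GRCh38.p14, 250 bases before to 50 bases after the start of a gene) 32 of the 36 members had an entry, and MCM4, MCM5, CCND1 and CCNE2 did not. E2F-type motifs were searched on both strands as TTTCGCGC, TTTGGCGC, TTTCCCGC, TTTGCCGC and TTTGGCGG. Of the 32 promoters, 20 (62.5%) held at least 1 match, against 6.59% of the 10278 promoters of tested genes and 3.95% of all 27305 promoters in the table. In 17 of the 20 the match nearest to the start lay within 60 bases of it. In 6 members more than 1 match was found, and matches on opposite strands can overlap, as in MCM2. CCAAT was found on either strand in 20 of the 32 (62.5%), against 37.1% of promoters of tested genes, and 14 members held both CCAAT and an E2F-type match. TTTGAA or TTCGAA, forms of the element known from late cell cycle genes, was found in 2 of the 32 (6.25%), against 11.3%. Windows from 9 members of different roles, 3 of them MCM genes, are shown on the strand of the gene, with the match in capitals.
CDC6, chr17:40287878-40287901: cattcggaTTTGGCGCgagcgcgg
MCM2, chr3:127598405-127598428: gaaccactTTTCGCGCgaaacctg
MCM3, chr6:52284731-52284754: tcggaagtTTTCGCGCcggggtgg
MCM7, chr7:100101391-100101414: gggcgacgTTTCGCGCcaatttcg
CDC45, chr22:19479887-19479910: agccgtgaTTTGGCGGgagtcttg
POLE, chr12:132687345-132687368: gtgggagcGCGCCAAAtttctccc
PCNA, chr20:5126666-5126689: cgtcagggGCGGGAAAaggcgtgc
TYMS, chr18:657606-657629: ggacggccGCGGGAAAaggcgcgc
UHRF1, chr19:4909479-4909502: gagttttcGCGGGAAAaaaatcag
A match describes these letters and does not show that a factor was bound.

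Expression was measured as TPM, a read number per gene length on a common scale for all libraries. Comparing levels between genes therefore depends on the gene length used, which appeared to be that of all annotated exons rather than of the transcripts expressed. The reads assigned to genes were estimated at 29830000 to 35830000 per library. For the 36 members this came to between 408 reads (CCNE1, mimic library 3) and 10194 reads (CCND1, mimic library 2) per library. The order by TPM differs from that by reads. POLE had 1434 to 1683 reads at a mean of 11.5 TPM, and CCNE1 408 to 515 reads at 22.1 TPM. All 10 endothelial markers were expressed and 0 passed the limma test (1 was higher at an unadjusted p under 0.05), summing to 5620 to 5887 TPM in control and 5906 to 6040 TPM in mimic libraries. Markers of other cells that were at 0 in every library were PTPRC, CD3E and ITGAM of leukocytes and KRT5 and KRT14 of epithelium. Others were present. Of the 5 epithelial markers KRT18, a keratin of simple epithelium, averaged 272 TPM and EPCAM 2.12 TPM, with list sums of 277 to 287 TPM in control and 236 to 297 TPM in mimic libraries. CD68 of the leukocyte list averaged 17.8 TPM and SMTN of the smooth muscle list 81.4 TPM, and the summed fibroblast markers stayed between 13.1 and 16.6 TPM in all 6 libraries. None of those tested passed by limma, and their part in the values below was not tested. In bulk RNA, fewer cells in S phase and less of a transcript per cell cannot be told apart.

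All 36 members were expressed in every library, from PCNA at a mean of 390.5 TPM over the 6 libraries to POLE at 11.5 TPM, a range of 34.1 times. A gene was tested if 3 or more libraries reached 1 TPM, which 13680 genes and all 36 members did. The median member stood at the 76.1th percentile of tested genes by level, and 9 members stood above the 90th. In the order of levels, PCNA, TYMS and CCND1 came first with ranges over the libraries that did not overlap their neighbours' ranges. Over the whole order, 26 of the 35 neighbouring pairs overlapped, among them every pair from RRM1 down to FEN1 and from CDC6 down to GINS3.

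**Figure D1:**
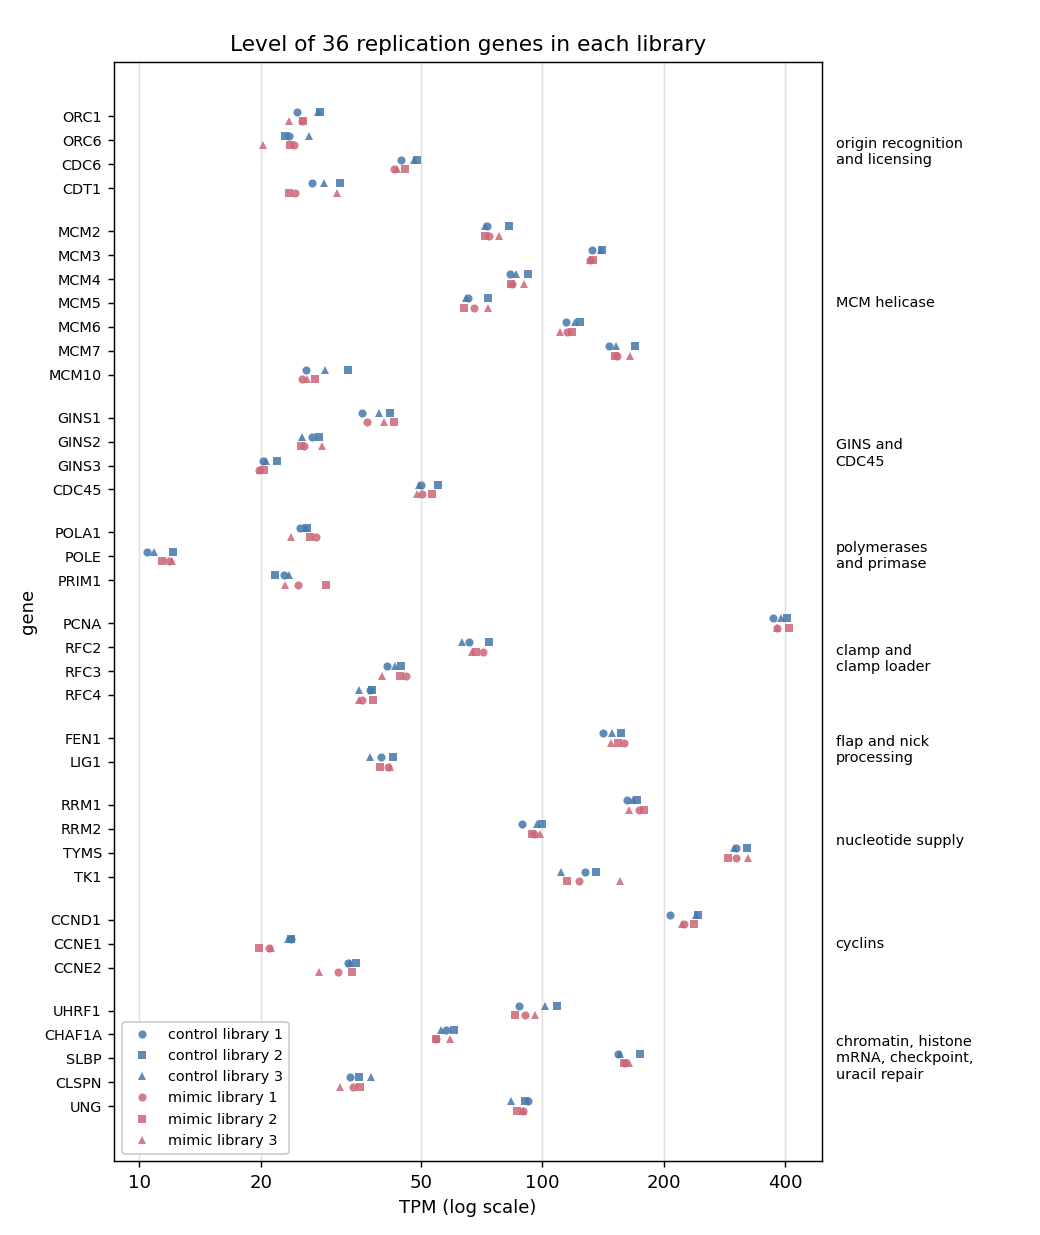
TPM (log scale) of the 36 replication genes in 3 control libraries (blue, upper row of each gene) and 3 mimic libraries (red, lower row), 1 point per library, with genes ordered by role. PCNA is highest near 390.5 TPM and POLE lowest near 11.5 TPM, and the red and blue points of a gene overlap for every gene except CCNE1.

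None of the replication genes passed the test between mimic and control cells. By limma with Benjamini-Hochberg adjustment over all 13680 genes, 0 of 36 rose and 0 fell, where 0.132% of all tested genes rose and 0.300% fell (0.431% in either direction). Without the adjustment, 1 member was lower at p under 0.05 (CCNE1) and 0 were higher, against 7.64% and 3.05% of all genes. Groups did not overlap in 0 members in the higher and 1 in the lower direction, against 5.16% and 10.5% of all genes. The median log2 fold change (mimic minus control on log2(TPM + 1)) was -0.015 over the members and -0.017 over all tested genes, with 21 members below 0 and 15 above. Mimic levels ran from 0.875 of the control level for CCNE1 to 1.13 times for PRIM1, and 33 of 36 were within 10% of the control mean.

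These estimates were narrow. The 95% interval of the fold change lay inside 1.25-fold in either direction for 32 of 36 members, against 60.8% of all tested genes and 82.5% of the 8200 tested genes within the members' range of levels. The 4 members whose intervals reached beyond it were CDT1, MCM10, PRIM1 and TK1. The spread within a group (coefficient of variation) had a median of 5.58% over the members, against 2.28% from the counting of reads alone, so replicate spread exceeded counting error in 34 of 36.

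**Figure D2:**
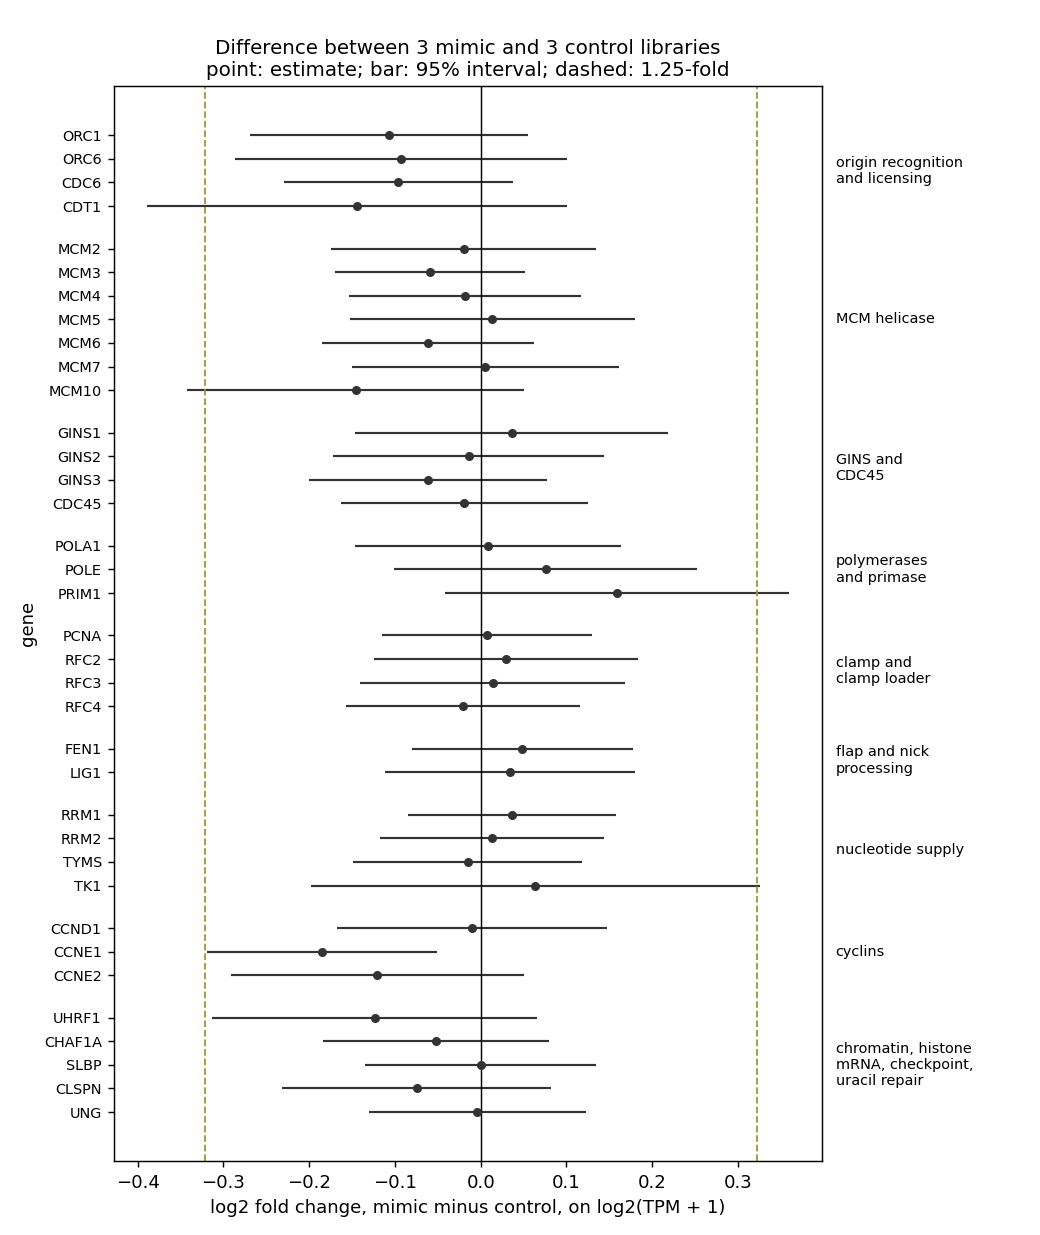
Log2 fold change of each of the 36 genes, mimic minus control on log2(TPM + 1), with 3 libraries per group. Points are limma estimates, bars 95% intervals, and dashed lines mark 1.25-fold, which the bars of CDT1, MCM10, PRIM1 and TK1 cross, while the bar of CCNE1 alone lies wholly on one side of 0.

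The licensing genes had estimates below 0 in all 4 cases, also under median-of-ratios and quantile scaling, and none passed the test. In the main fit 56.6% of all tested genes were below 0. CDC6, the ATPase that joins the origin complex to load MCM, measured 44.6, 48.7 and 48.1 TPM in control libraries 1 to 3 and 42.9, 45.6 and 43.6 TPM in mimic libraries 1 to 3. Control libraries 2 and 3 lay above all mimic libraries, and control library 1 lay among them (log2 fold change -0.10, SE 0.06, limma adjusted p = 0.662). ORC1, the largest subunit of the origin recognition complex and the one that comes and goes with the cycle, measured 24.6, 28.0 and 27.7 TPM in control and 25.3, 25.5 and 23.5 TPM in mimic libraries. Its groups overlapped through control library 1 (log2 fold change -0.11, SE 0.07, limma adjusted p = 0.707).

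ORC6, the smallest subunit, averaged 24.3 ± 1.79 TPM in control against 22.7 ± 2.10 TPM in mimic libraries (mean ± SD, n = 3 each here and below). CDT1, the loading factor that geminin holds back in S phase, averaged 28.98 ± 2.29 and 26.3 ± 4.12 TPM. Its mimic values were split, with 24.3 and 23.5 TPM in libraries 1 and 2 and 31.0 TPM in library 3. Without mimic library 3 the log2 fold change of CDT1 was -0.27 in place of -0.14, with a limma adjusted p of 0.240. The ratio of CDC6 to CDT1 was 1.63 ± 0.0683 in control and 1.70 ± 0.273 in mimic cells (n = 3).

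The MCM2 to MCM7 genes, which encode the 6 different subunits of the helicase ring, did not pass the test in any case. MCM7 was the most abundant, at 146, 170 and 152 TPM in control and 153, 151 and 165 TPM in mimic libraries. This gene also carries the miR-106b cluster in an intron. MCM3 measured 132, 141 and 140 TPM in control and 131, 134 and 131 TPM in mimic libraries, and MCM6 measured 114, 124 and 120 TPM and 115, 118 and 111 TPM. For both, the lowest control library fell among the mimic libraries.

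MCM4 measured 83.1, 91.8 and 85.9 TPM in control and 83.9, 83.4 and 90.2 TPM in mimic libraries. MCM2, the subunit that also binds histones, measured 72.8, 82.7 and 72.0 TPM and 73.8, 72.1 and 78.1 TPM. MCM5 measured 65.3, 73.2 and 64.6 TPM and 67.7, 63.8 and 73.5 TPM. In each of these 3 genes control library 2 and mimic library 3 were the high libraries of their groups, and the groups overlapped.

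The fold changes of the ring subunits ran from -0.06 (MCM6, SE 0.05) to 0.01 (MCM5, SE 0.07) on the log2 scale, and the 95% intervals of all 6 lay inside 1.25-fold. Although the subunits join the ring in equal number, their transcripts were not equal in TPM. Such values depend on the gene length used. In estimated reads per library, MCM7 had 5310 to 6068 and MCM5 3969 to 4380. The part of gene length in their TPM ratio was not tested. MCM7 stood at 2.30 ± 0.0594 times MCM5 in control and at 2.29 ± 0.0660 times in mimic cells (n = 3), and the ratio stayed between 2.24 and 2.37 in the 6 libraries. Of the 2 ring genes with a 7mer-A1 site, MCM5 had a fold change of 0.01 and MCM6 of -0.06.

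MCM10, a separate protein that helps the helicase to start, measured 26.0, 32.9 and 28.8 TPM in control and 25.4, 27.2 and 26.0 TPM in mimic libraries. Control library 2 was the highest and control library 1 lay among the mimic libraries. The log2 fold change was -0.15 (SE 0.09, limma adjusted p = 0.648).

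The GINS subunits and CDC45, which complete the active helicase, also showed no call. GINS3, which carries an 8mer site, measured 20.3, 21.9 and 20.6 TPM in control and 19.8, 20.4 and 19.9 TPM in mimic libraries, and its groups overlapped by 1 library (log2 fold change -0.06, SE 0.06, limma adjusted p = 0.855). GINS1 measured 35.7, 41.9 and 39.3 TPM and 36.7, 42.9 and 40.3 TPM, with library 1 the lowest in both groups. GINS2 averaged 26.7 ± 1.28 and 26.4 ± 1.75 TPM, and CDC45 51.5 ± 3.01 and 50.8 ± 2.23 TPM, in the control and mimic groups (n = 3).

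All 3 polymerase and primase genes had estimates above 0, also under both other scalings, and none passed the test. Of all 13680 tested genes, 5942 were above 0 in the main fit. In 14 other settings of the fit, POLE and PRIM1 kept that sign throughout. POLA1 kept it in 11, with a lowest log2 fold change of -0.032. PRIM1, the catalytic primase subunit that makes the RNA primers, measured 22.8, 21.7 and 23.5 TPM in control and 24.7, 28.99 and 22.9 TPM in mimic libraries. Mimic library 2 stood far above the rest and mimic library 3 lay among the controls (log2 fold change 0.16, SE 0.09, limma adjusted p = 0.602). PRIM1 overlaps the gene NACA on the same strand in GENCODE, so reads may be shared and its value is uncertain. The same limit holds for other members, since 8 overlap a gene on the same strand and 16 on the opposite strand. Among them are FEN1 (with FADS2, same strand), TYMS (with ENOSF1, opposite strand) and CCNE2 (with INTS8, opposite strand). POLE, the catalytic subunit of the leading strand polymerase, measured 10.4, 12.1 and 10.9 TPM and 11.8, 11.4 and 12.1 TPM, and the groups overlapped. POLA1, the catalytic subunit of the polymerase that extends primers, averaged 25.7 ± 0.536 and 25.9 ± 1.89 TPM in the control and mimic groups (n = 3).

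PCNA, the sliding clamp, was the highest of the members, and its group means differed by less than its spread. It measured 374, 403 and 391 TPM in control and 383, 410 and 382 TPM in mimic libraries, with library 2 the highest in each group (log2 fold change 0.01, SE 0.05). The 95% interval of the mimic level ran from 0.924 to 1.09 times control. Of the clamp loader subunits, RFC2 measured 65.6, 73.8 and 63.2 TPM and 71.3, 68.5 and 66.7 TPM, and RFC4 measured 37.4, 37.7 and 35.1 TPM and 35.6, 38.0 and 35.0 TPM. RFC3 averaged 42.9 ± 1.71 and 43.4 ± 3.10 TPM (n = 3), and PCNA stood at 9.08 ± 0.0190 times RFC3 in control and 9.05 ± 0.635 times in mimic cells.

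FEN1 and LIG1, the nuclease and the ligase that finish Okazaki fragments, had estimates slightly above 0. FEN1 measured 141, 156 and 149 TPM in control and 160, 154 and 148 TPM in mimic libraries (a log2 difference of 0.05, SE 0.06, limma adjusted p = 0.891). LIG1 measured 39.9, 42.7 and 37.4 TPM and 41.3, 39.6 and 41.9 TPM. Both groups of both genes overlapped.

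The nucleotide supply genes were among the most abundant members. TYMS, which makes the thymidine nucleotide from its uracil form, averaged 307 ± 12.1 TPM in control against 304 ± 17.6 TPM in mimic libraries (n = 3). RRM1, the large subunit of ribonucleotide reductase, measured 162, 172 and 168 TPM and 173, 178 and 164 TPM. RRM2, its cell cycle regulated small subunit and the other gene with an 8mer site, averaged 95.2 ± 5.39 and 96.0 ± 2.29 TPM (log2 fold change 0.01, SE 0.06, limma adjusted p = 0.977). RRM1 thus stood at 1.66 to 1.90 times RRM2 in the 6 libraries. TK1, the salvage kinase for thymidine, measured 128, 136 and 111 TPM in control and 123, 115 and 155 TPM in mimic libraries. It was high in mimic library 3 alone among mimic libraries, and without that library its log2 fold change turned from 0.06 to -0.06, neither of them called.

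Cyclin D1 and the E cyclins open S phase by activating the kinases that act on RB. CCND1 measured 208, 243 and 240 TPM in control and 225, 237 and 222 TPM in mimic libraries, so that all mimic libraries lay inside the control range (log2 fold change -0.01, SE 0.07, limma adjusted p = 0.987). CCNE1 measured 23.7, 23.8 and 23.3 TPM in control and 21.0, 19.8 and 21.2 TPM in mimic libraries. It was the 1 member whose groups were fully apart, with the mimic values the lower, at 0.875 of the control level (95% interval 0.801 to 0.966).

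The log2 fold change of CCNE1 was -0.18 (SE 0.06), and it did not pass over all genes (limma adjusted p = 0.280, and 0.266 to 0.624 in 14 other settings). The 3 control libraries of CCNE1 differed by 1.07% (coefficient of variation), less than the 4.46% that counting 494 to 515 reads gives by itself. CCNE1 overlaps no other annotated gene and its 3′ UTR holds no seed match. CCNE2, the second E cyclin, measured 33.0, 34.5 and 33.4 TPM in control and 31.2, 33.7 and 27.9 TPM in mimic libraries. Its groups overlapped through mimic library 2, and mimic library 3 was the lowest (log2 fold change -0.12, SE 0.07, limma adjusted p = 0.673). The ratio of CCNE2 to CCNE1 was 1.42 ± 0.0302 in control and 1.50 ± 0.197 in mimic cells (n = 3).

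The last members act on chromatin, histone mRNA, the fork checkpoint and uracil in DNA. UHRF1, which brings the maintenance methyltransferase to newly copied DNA, measured 87.6, 109 and 101 TPM in control and 90.4, 85.7 and 96.0 TPM in mimic libraries, and control library 1 lay among the mimic libraries (log2 fold change -0.12, SE 0.08, limma adjusted p = 0.711). CLSPN, the adaptor that passes the checkpoint signal to CHK1, measured 33.4, 35.1 and 37.5 TPM and 34.0, 35.2 and 31.4 TPM. CHAF1A, of the chromatin assembly factor that places histones behind the fork, averaged 58.1 ± 2.14 and 56.0 ± 2.57 TPM. SLBP, which binds the stem-loop of histone mRNA, averaged 161 ± 11.1 and 161 ± 2.71 TPM, and the uracil glycosylase UNG 88.8 ± 4.49 and 88.5 ± 1.91 TPM (n = 3). SLBP carries a 7mer-A1 site and CDC6 a 7mer-m8 site. Over the 6 members with a 7mer or 8mer site the median log2 fold change was -0.030, against -0.016 over the 2704 searched genes with one. Without any match it was -0.015 over 25 members and -0.021 over 6478 searched genes.

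A pattern by library ran through the members. Control library 2 held the highest value of 21 of the 36 members, and 34 of 36 were above their own mean there. Over all tested genes, control library 2 held the highest value of 2997 of 13680, and 8941 were above their own mean there. Mimic library 2 (3410) and control library 3 (3006) held more of the highest values. Being above the own mean in control library 2 was not particular to the members. Of 85 other replication genes, described below, 72 were above their own mean and 22 highest there, while 29 were highest in mimic library 2. In control library 2, 7 of 12 mitosis markers were highest and 9 above their own mean. The median deviation of log2(TPM + 1) from each gene's mean over the 6 libraries was 0.085 for the members and 0.037 for all tested genes in that library, and between -0.043 and -0.0053 for the members in the other 5. For the MCM genes, 6 of 7 were highest in control library 2. Without control library 2 the median log2 fold change of the members was 0.021 in place of -0.015, and again 0 members were called, with CCNE1 lower at an unadjusted p under 0.05.

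Libraries of both groups diverged by the base composition of the transcripts, most of all mimic libraries 2 and 3. The GC content of the longest coding transcript ran from 36.9% in CCNE2 to 64.9% in CDT1. Across the 36 members, the rank correlation (Spearman) of GC with the deviation was -0.72 in mimic library 2 and 0.70 in mimic library 3. Over all 11966 protein-coding genes tested it was -0.54 and 0.58, with the same signs. In control library 2 the correlation was 0.48 over the members and 0.21 over all genes, and in control library 3 it was -0.38 and -0.27. In control library 1 and mimic library 1 it was 0.068 and -0.14 over the members. These are correlations across genes within a library, which are not independent replicates. Because deviations are taken from the mean over all libraries, upward slopes in some libraries are partly balanced by downward slopes in others. In mimic library 3 the 18 members with higher GC had a median deviation of 0.024 and the others of -0.060, and in mimic library 2 the values were -0.033 and 0.024.

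The high TK1 and CDT1 and the low CCNE2 of mimic library 3, and the high PRIM1 of mimic library 2, belong to genes near the ends of this range (TK1 62.8%, CDT1 64.9%, CCNE2 36.9%, PRIM1 40.1%). The part of GC in these values was not tested. In the difference between groups, the rank correlation of GC with the log2 fold change over the members was 0.022.

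**Figure D3:**
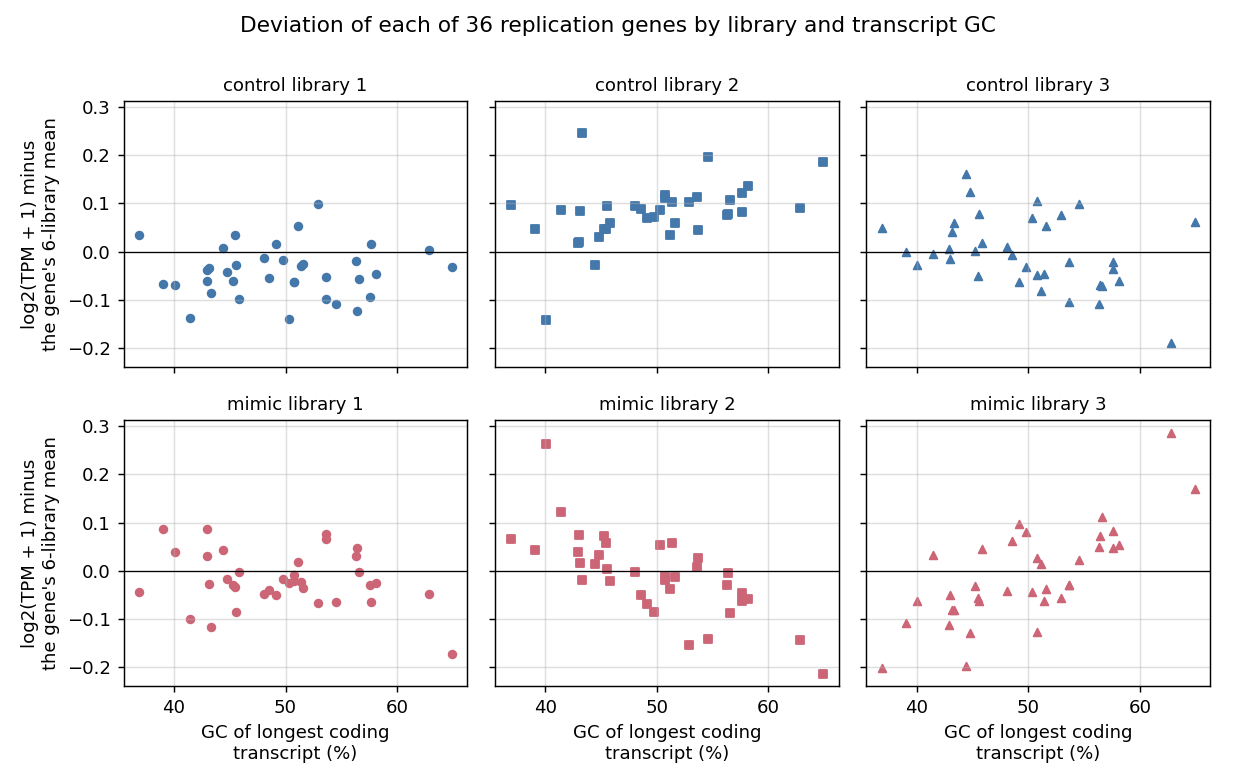
Deviation of log2(TPM + 1) of each of the 36 genes from its mean over the 6 libraries (vertical axis) against the GC content of its longest coding transcript in percent (horizontal axis), 1 panel per library. The points of control library 2 lie mostly above 0, those of mimic library 2 slope down (rank correlation -0.72) and those of mimic library 3 slope up (0.70), with weaker slopes in control libraries 2 (0.48) and 3 (-0.38).

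Beyond these members, 85 other genes of DNA replication and of its G1/S control were compared, a list put together by function. All 85 were tested, 0 rose, 2 fell and 83 did not pass by limma with Benjamini-Hochberg adjustment, with a median log2 fold change of -0.025. Over all tested genes 0.132% rose and 0.300% fell. Without the adjustment, 3 of the 85 were lower and 0 higher at p under 0.05, against 7.64% and 3.05% of all genes. The 2 that fell were TICRR and E2F8.

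TICRR encodes treslin, which carries the kinase signal that lets CDC45 join the helicase. It measured 10.5, 10.7 and 11.3 TPM in control and 7.37, 7.86 and 7.28 TPM in mimic libraries. The groups did not overlap, and the mimic level was 0.693 of control (log2 fold change -0.48, SE 0.07, limma adjusted p = 0.0436). The 462 to 822 reads per library behind it were whole numbers. TICRR (chr15:89575482-89631056, plus strand, GRCh38) overlaps KIF7 on the other strand and AC013391.2 on its own strand, and the handling of shared reads is unknown, so its value is uncertain. Its 3′ UTR of 937 nt holds a 7mer-A1 site. With 1 library left out the limma adjusted p of TICRR ran from 0.0558 to 0.180, so leaving out any one of the 6 ended the call.

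E2F8, an atypical E2F that represses E2F target genes late in S phase, measured 19.2, 24.3 and 23.4 TPM in control and 14.0, 14.0 and 14.0 TPM in mimic libraries. The mimic level was 0.628 of control (log2 fold change -0.63, SE 0.09, limma adjusted p = 0.0296). The 3 mimic libraries differed by 0.275% (coefficient of variation), below the 4.60% given by counting alone. E2F8 overlaps an antisense gene, which makes its value uncertain too, and its 3′ UTR of 595 nt holds a 6mer site. It passed with control library 1 left out (limma adjusted p = 0.0306), and leaving out any other library ended the call, at adjusted p-values up to 0.136.

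CDC25A, the phosphatase that activates the cyclin E kinase, was the third gene at an unadjusted p under 0.05. It measured 26.7, 29.5 and 29.3 TPM in control and 25.8, 24.1 and 21.9 TPM in mimic libraries, without overlap (log2 fold change -0.25, SE 0.08, limma adjusted p = 0.259). Of the 85 genes, groups did not overlap in 6 in the lower and 3 in the higher direction (7.06% and 3.53%). These shares were below the 10.5% and 5.16% of all tested genes. Over all tested genes 56.6% of estimates were below 0, with a median of -0.017. In the role groups of this list, 16 of 20 firing and fork proteins were below 0 (median -0.075), as were 5 of 6 other licensing genes and 4 of 6 clamp loader and flap genes. Below 0 were also 8 of 12 chromatin and histone supply genes and 15 of 24 cyclin, kinase and G1/S regulators. The other polymerase genes had 4 of 9 below 0, and the other nucleotide supply genes 2 of 8 (median 0.019).

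**Figure D4:**
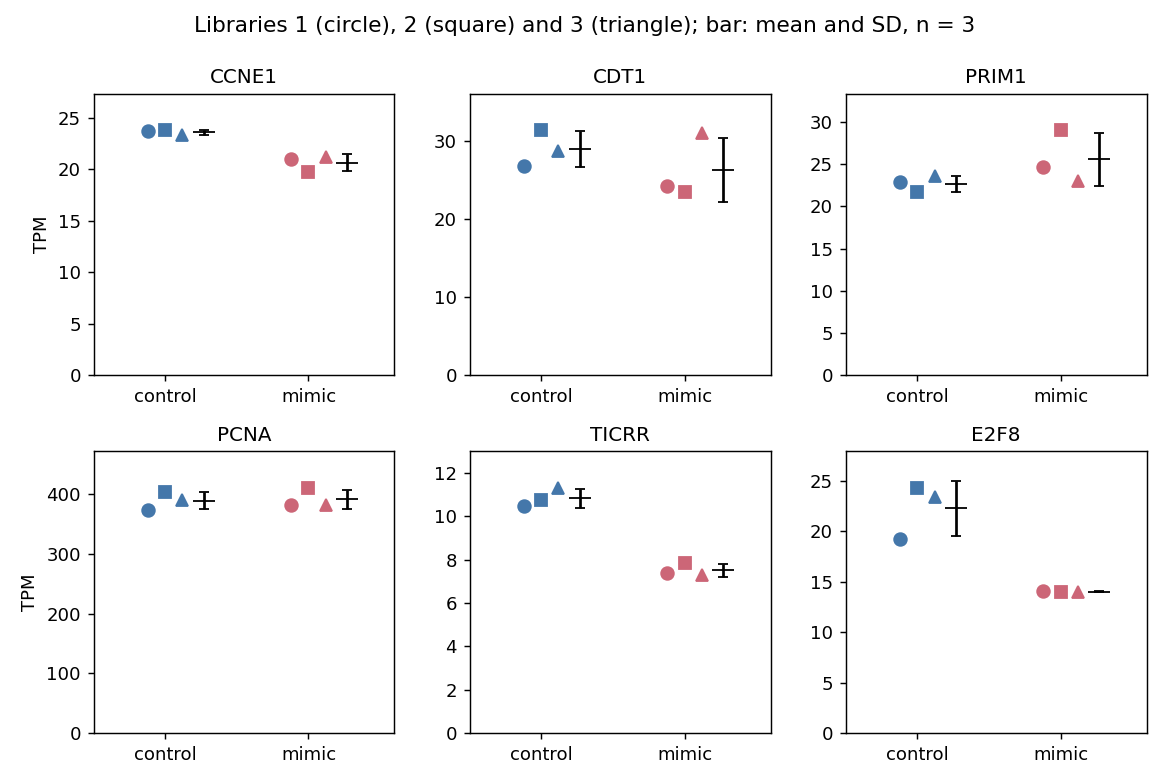
TPM of 4 members (CCNE1, CDT1, PRIM1, PCNA) and of TICRR and E2F8 in each of 3 control (blue) and 3 mimic (red) libraries, with the mean and SD (n = 3) as a bar beside the points. Mimic and control points are apart in CCNE1, TICRR and E2F8 and overlap in CDT1, PRIM1 and PCNA.

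Markers of mitosis, the stage that follows, gave 0 calls among 12 genes by limma, where 0.431% of all tested genes passed in either direction. At an unadjusted p under 0.05 there were also 0, against 7.64% of all genes lower and 3.05% higher, and the median log2 fold change of the markers was -0.042. MKI67, the common marker of cycling cells, averaged 77.7 ± 2.66 TPM in control against 71.9 ± 2.31 TPM in mimic libraries (a log2 difference of -0.11, SE 0.05, limma adjusted p = 0.533). For AURKA, a spindle kinase gene, the difference was -0.09 (SE 0.06), and for BUB1, of the spindle checkpoint, 0.08 (SE 0.06), both on the log2 scale. BTG2 itself measured 81.0, 78.9 and 80.0 TPM in control and 53.6, 55.6 and 45.7 TPM in mimic libraries, 0.646 of the control level without overlap (log2 fold change -0.63, SE 0.08, limma adjusted p = 0.0143). In the same libraries CCND1, a gene that BTG2 has been reported to repress, stood at 0.991 of control with a 95% interval from 0.890 to 1.11.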

How the data were processed

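For every library the deposited file lists TPM for 45372 Ensembl genes, per the file headers. The submitters' processing notes name hg38 and GRCh38.p13, but the aligner, the counter, the annotation and the strand setting were not given. Symbols were looked up by Ensembl ID (45102 matched), and positions, UTRs and transcripts from GENCODE 29 on GRCh38 (43348 matched).

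TPM times exon length moved in equal steps within a library, each taken as 1 read, which gave read numbers and the depth. The read numbers were whole within 0.05 reads in all libraries for 78.6% of 10529 genes under 50 reads and for 16 of the 36 members, and the rest are estimates. Reads carried no molecular identifiers, so counting error is a lower limit of the technical error.

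limma 3.58.1 in R 4.3.3 (trended prior, group as the only term) was fitted to log2(TPM + 1) of 13680 genes that reached 1 TPM in 3 or more libraries, with Benjamini-Hochberg adjustment over all of them and a threshold of 0.05. The scale slightly understates changes of low genes. The fit was also run on simulated data with independent noise for each gene. Such data lack the deviations by GC that these libraries share across genes, so that run does not check for them. Replicate numbers were not treated as pairing the libraries.

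The members and lists were chosen with earlier results of these data known. Named are all members, with every library's value for the 2 of each role with the lowest p, MCM2 to MCM7, PCNA and the cyclins, and, from the other lists, genes past the threshold and the 3 largest changes at 5 TPM or more. CDT1 was added after its values were seen. Of the members, 19 overlap another annotated gene and 6 have pseudogenes named after them, and how shared reads were counted is not given. Python 3.11.15, numpy 2.4.6, pandas 2.3.3 and matplotlib 3.10.9 were used.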

Additional observations from a re-analysis of the deposited data

How the results depend on the processing

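In 14 other settings 0 of 36 members passed by limma with Benjamini-Hochberg adjustment, and the lowest adjusted p was 0.240 (CDT1 without mimic library 3). At an unadjusted p under 0.05, 1 to 4 members were lower and 0 or 1 higher. In the main fit 7.64% of all tested genes were lower and 3.05% higher at that threshold. The shares of all genes under the other settings are not given here, so these counts are not read as a result about the members. Estimates kept their sign in every setting for 17 members and changed it, uncalled, in at least 1 for 19. For CCNE1 the adjusted p ran from 0.266 to 0.624. The member median ran from -0.035 to 0.021 with 1 library left out.

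Over all genes, 18 rises and 41 falls became 6 and 5 when no low gene was filtered out. A 5 TPM filter gave 36 and 79, an untrended prior 10 and 10, a robust prior 37 and 82, and a replicate block 9 and 5. Median-of-ratios scaling gave 33 rises and quantile scaling 34. Leaving out 1 library gave 6 to 22 rises and 6 to 27 falls. The 2 falls among other replication genes, TICRR and E2F8, became 0 without a filter, under an untrended prior and under a replicate block, and 0 to 1 with 1 library left out. The cause was not tested beyond the loss of a library itself. Same-numbered libraries deviated together at r = 0.031, -0.087 and -0.11 across genes, and differently numbered ones at -0.031 to 0.11. Because the libraries also diverged by GC, these correlations cannot tell whether same-numbered libraries were paired. No label pairs them, so the numbers were not treated as pairs, and under the replicate block 0 members passed. With 3 libraries a group, differences within the printed intervals could not be resolved.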
